A study of Mus musculus with 27 samples.

Results

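H3K4me2 loss was taken here as the regions that the authors deposited as decreased for H3K4me2 in the mutant, without those that also stood in their list of decreased H3K4me1. The H3K4me2 list held 6699 regions, 172 of them were in both lists and were left out, and 6527 remained. These 6527 regions were 1.82% of the 358833 merged regions with H3K4me1, H3K4me2 or H3K4me3, which served as the background. Each region was given to the protein-coding genes whose transcription start site (TSS) lay inside it, then to other transcripts starting inside it, and otherwise to the nearest protein-coding TSS.

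The hearts were taken from C57BL/6 mouse embryos at embryonic stage E11.5. Control hearts were *Tnnt2::Cre;Kmt2d fl/+* and mutant hearts *Tnnt2::Cre;Kmt2d fl/fl*, both from a cross that also carried the *mTmG* reporter, and each genotype gave 3 H3K4me2 libraries, each from a pool of 30 hearts. They are part of a series of 27 libraries in 9 groups, which also covers H3K4me1, H3K4me3, input and KMT2D itself. The *Tnnt2* promoter limits Cre to heart muscle cells, so other cells of the heart kept *Kmt2d*, and the control hearts already had 1 floxed allele in the same cells. The lists hold region coordinates only, so read depth is unknown, the lists give no value per pool, no test against the spread between pools was possible from them, and a loss in fewer cells cannot be told apart from a smaller loss in more cells. Intervals below are 95% Wilson intervals, which cover counting error only, and they treat neighbouring regions and genes as independent. All 10 cardiomyocyte markers that were checked had a TSS in a merged region (5840 to 22900 bp wide), and 2 of the 10 had H3K4me2 loss there. The targeted gene, annotated as *Mll2*, had its TSS in a 7100 bp region that was not in the list, and without reads its deletion could not be checked.

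Lysine 4 of histone H3 carries 1, 2 or 3 methyl groups. KMT2D is one of the enzymes that add the first ones, mostly at enhancers, while H3K4me2 sits on the flanks of active promoters and on enhancers. Promoters rich in CpG dinucleotides are usually free of DNA methylation and marked by H3K4 methylation in many cell types, whereas promoters of genes used in 1 cell type are often poor in CpG.

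A TSS of a protein-coding gene lay inside a merged region for 15541 of 22219 annotated genes, called marked genes here. Of these, 4520 had a TSS in a region with H3K4me2 loss and are called genes with loss, or 29.1% (28.4% to 29.8%). To show the promoters at issue, the 200 bases before the TSS are printed for 4 genes with loss and for 2 heart muscle genes without it. CpG dinucleotides are in capitals. *Gpx1* (chr9:108241407-108241606, + strand) encodes an enzyme that removes peroxides, and *Fxyd1* (chr7:31840676-31840875, - strand) a regulator of the sodium pump. Both belong to the study's own examples. *Gata4* (chr14:63890530-63890729, -) encodes a cardiac transcription factor, and *Hist1h2bc* (chr13:23775868-23776067, +) a histone H2B. *Tnnt2* (chr1:137737252-137737451, +) and *Myh7* (chr14:55613472-55613671, -) encode troponin T and a myosin heavy chain of the sarcomere. The build is NCBIM37 (mm9), the gene's strand is shown 5′ to 3′, and no window overlaps an annotated untranslated region.

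*Gpx1*: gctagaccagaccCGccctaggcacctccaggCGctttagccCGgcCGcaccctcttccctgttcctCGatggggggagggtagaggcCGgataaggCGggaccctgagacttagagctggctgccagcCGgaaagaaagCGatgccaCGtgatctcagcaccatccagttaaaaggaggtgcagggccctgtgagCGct
*Fxyd1*: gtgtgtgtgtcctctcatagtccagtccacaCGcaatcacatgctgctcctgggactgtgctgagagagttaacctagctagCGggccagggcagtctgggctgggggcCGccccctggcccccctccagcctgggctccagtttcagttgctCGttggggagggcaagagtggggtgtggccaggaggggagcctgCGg
*Gata4*: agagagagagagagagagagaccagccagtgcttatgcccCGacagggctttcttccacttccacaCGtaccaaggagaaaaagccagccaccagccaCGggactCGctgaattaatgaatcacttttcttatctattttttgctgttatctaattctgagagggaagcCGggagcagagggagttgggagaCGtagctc
*Hist1h2bc*: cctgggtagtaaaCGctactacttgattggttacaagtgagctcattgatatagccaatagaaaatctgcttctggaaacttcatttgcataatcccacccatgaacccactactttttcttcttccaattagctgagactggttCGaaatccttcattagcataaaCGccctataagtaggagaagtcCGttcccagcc
*Tnnt2*: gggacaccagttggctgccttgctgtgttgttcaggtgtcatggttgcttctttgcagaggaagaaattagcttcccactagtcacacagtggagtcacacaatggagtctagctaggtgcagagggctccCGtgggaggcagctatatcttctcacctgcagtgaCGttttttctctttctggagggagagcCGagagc
*Myh7*: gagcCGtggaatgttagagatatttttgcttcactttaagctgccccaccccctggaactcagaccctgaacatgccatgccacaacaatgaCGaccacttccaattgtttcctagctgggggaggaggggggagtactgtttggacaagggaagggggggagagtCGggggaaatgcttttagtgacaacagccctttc

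In these 200 bases the genes with loss had a median of 15 CpG (quartiles 9 and 21) and the marked genes without loss 11 (5 and 17). *Gpx1*, with 11, lay at the median of the genes without loss. *Gata4* had 6, *Fxyd1* 5 and *Hist1h2bc* 4, below both medians, and *Tnnt2* and *Myh7* had 3 each. Loss was therefore listed at promoters poor in CpG as well.

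The regions with loss were mostly promoters. A coding TSS lay inside 3954 of the 6527 regions, or 60.6% (59.4% to 61.8%), and 139 more held only TSS of other transcripts. The remaining 2434 held no TSS. Loss was listed for 24.8% (24.2% to 25.5%) of the 15916 merged regions with a coding TSS, where merged regions of the same widths gave 10.8%. Farther than 5 kb from a coding TSS it was listed for 0.815% of regions between genes (same-width 1.14%) and 0.591% of those in genes (same-width 1.60%). Regions with a coding TSS were 4420 bp wide at the median (quartiles 3060 and 6820) and made up 23 of the 27.4 Mb covered. Those without were narrower, at a median of 440 bp (80 and 2160). A region shared by 2 or more coding genes was found 585 times, and 36 regions held 3 or more. Among merged regions, loss was listed for 23.4% (22.8% to 24.1%) of those with 1 coding gene, 37.0% (34.6% to 39.5%) of those with 2 and 56.2% (44.1% to 67.7%) of those with 3 or more, where regions of the same widths with any coding TSS gave 24.2%, 30.9% and 38.6%. Every region of chromosome 13 with 3 or more histone genes had loss and is among the 36, and the share without histone regions was not computed.

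The share of genes with loss rose with the width of the region at the TSS, taken as the widest where a gene had several. No gene whose widest region was below 500 bp had loss (0 of 85 below 200 bp and 0 of 176 at 200 to 500 bp), and 2.46% were at 500 to 1000 bp. The share was 24.3% (22.7% to 25.9%) at 2000 to 3000 bp, 39.8% (37.4% to 42.2%) at 6000 to 8000 bp and 62.0% (54.8% to 68.7%) at 20000 bp or more. Gene groups differ in these widths, so each group below is set beside all marked genes (29.1%) and beside all marked genes whose TSS regions fall in the same 13 width classes, called the same-width share.

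**Figure D1:**
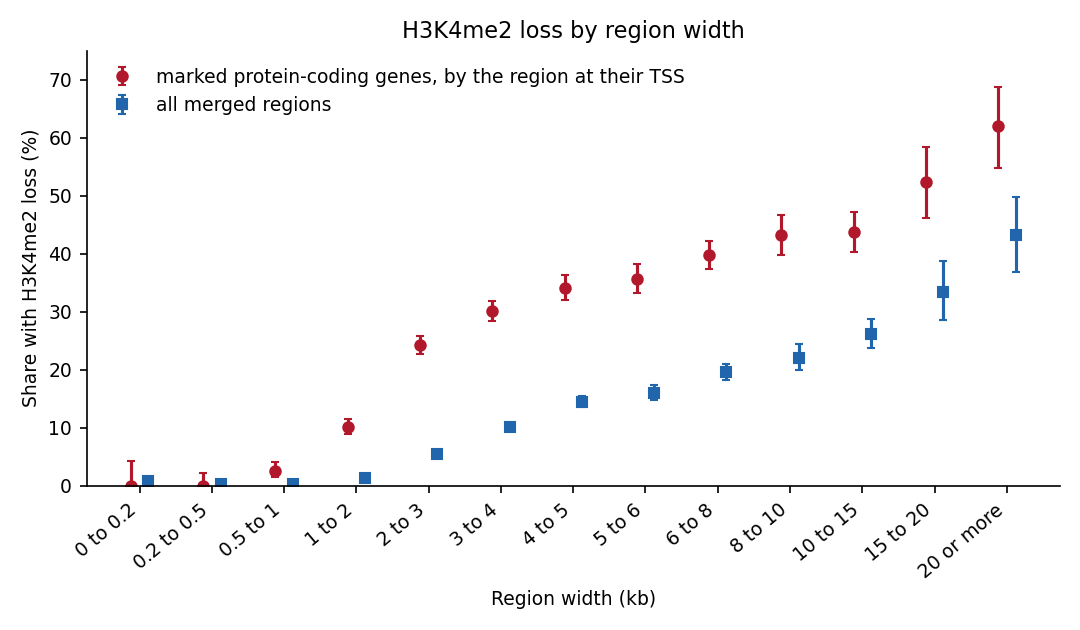
Share of marked genes (circles) and of merged regions (squares) with H3K4me2 loss (%), by width of the region (kb), with 95% Wilson intervals. The share of genes climbs from 2.46% at 0.5 to 1 kb to 62.0% at 20 kb or more, and lies above that of all regions from 0.5 kb on.

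Around the TSS, regions with loss reached a median of 1476 bp upstream and 2710 bp downstream, against 1029 and 1981 bp for genes without loss. This difference followed the width. With 1 gene in the region, at 3000 to 4000 bp, the medians were 1087 bp upstream and 2306 bp downstream for genes with loss and 1081 and 2320 bp for the others. The downstream side was the longer for 78.2% of genes with loss and 73.7% of the others.

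Among the regions with loss and a coding TSS, *Zfpm1* (FOG1, a partner of GATA factors) had the widest, 60640 bp at chr8:124797166-124857805, followed by *Gata4* with 48800 bp at chr14:63845446-63894245. *Igsf3*, a cell surface protein, had 42800 bp. The zinc finger factor *Rreb1* had 42680 bp, *Igf2r*, the receptor that clears insulin-like growth factor 2, 41120 bp, and *Ank1*, a membrane skeleton protein of red blood cells, 40880 bp. The other 4 of the widest 10 were *Zmiz1* (39780 bp), *Fignl1* (39400 bp), *Gata6* (38180 bp) and *Smad7*, an inhibitor of TGF-beta signalling (37420 bp). All 10 overlapped annotated exons and untranslated regions. At the other end, *Nrcam*, a neuronal adhesion protein, had a region of 60 bp around 1 of its TSS, the smallest width in the merged list, beside a wider TSS region of 2140 bp without loss, and the next were *Gm2897* (780 bp), *Wnt5b* (800 bp), *Dynlrb2* and *Calr3* (820 bp each).

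Of 15 marked genes on a list of genes that the study names, 8 had loss. Not all of them are named as examples of H3K4me2 loss, so the count is no rate for such examples. The genes were chosen by the study on these samples and are no independent evidence. *Stradb*, an activator of the kinase LKB1, had a region of 26480 bp at chr1:59006226-59032705, which it shared with another coding gene and of which 24140 bp lay upstream of its TSS. *E2f2* had 11700 bp at chr4:135725986-135737685, from 2323 bp upstream into the gene. The hypoxia factor gene *Hif1a* had 10240 bp, and *Gpx1* 8540 bp. *Fxyd1* shared a region of 6460 bp with *Fxyd7*, and the calcium-dependent kinase gene *Camk2a* had 5260 bp. *Dclk1* had loss at an inner TSS only (1040 bp), while its widest TSS region (2180 bp) was not in the list. *Bcl9l* and *Sgca* started in regions of both lists (20640 and 4560 bp) and so were left out. *Gse1* (23440 bp), *2900026A02Rik*, *Klhl30* (4800 bp) and *Mgp* (2160 bp) had no loss at a TSS.

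Across 91 lists of families, complexes and cell type markers with at least 10 marked genes, 23 had a Wilson interval above the 29.1% of all marked genes and 13 had one below it. Against the same-width shares, 8 lay above and 12 below. Weighted to width and CpG content together, 7 lay above and 9 below. With each gene counted once per class of lists, chromatin genes had loss at 125 of 222 (56.3%, 49.7% to 62.7%, same-width 35.9%), of which 52 were histone genes, and without histone genes at 73 of 163 (44.8%, 37.4% to 52.5%, same-width 34.3%). RNA processing genes had loss at 68 of 153 (44.4%, 36.8% to 52.4%, same-width 32.3%). Matrix and adhesion genes had 21 of 173 (12.1%, 8.08% to 17.8%, same-width 25.4%), ion transport genes 79 of 410 (19.3%, 15.7% to 23.4%, same-width 27%), signalling genes 104 of 405 (25.7%, 21.7% to 30.1%, same-width 34.5%) and markers of other cell types 16 of 104 (15.4%, 9.70% to 23.5%, same-width 31.6%). The heart muscle lists together, sarcomere and calcium handling, had 23 of 64 (35.9%, 25.3% to 48.2%), where genes of the same widths gave 39.7%, and transcription factors 191 of 639 (29.9%, 26.5% to 33.6%), where they gave 29.6%.

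**Figure D2:**
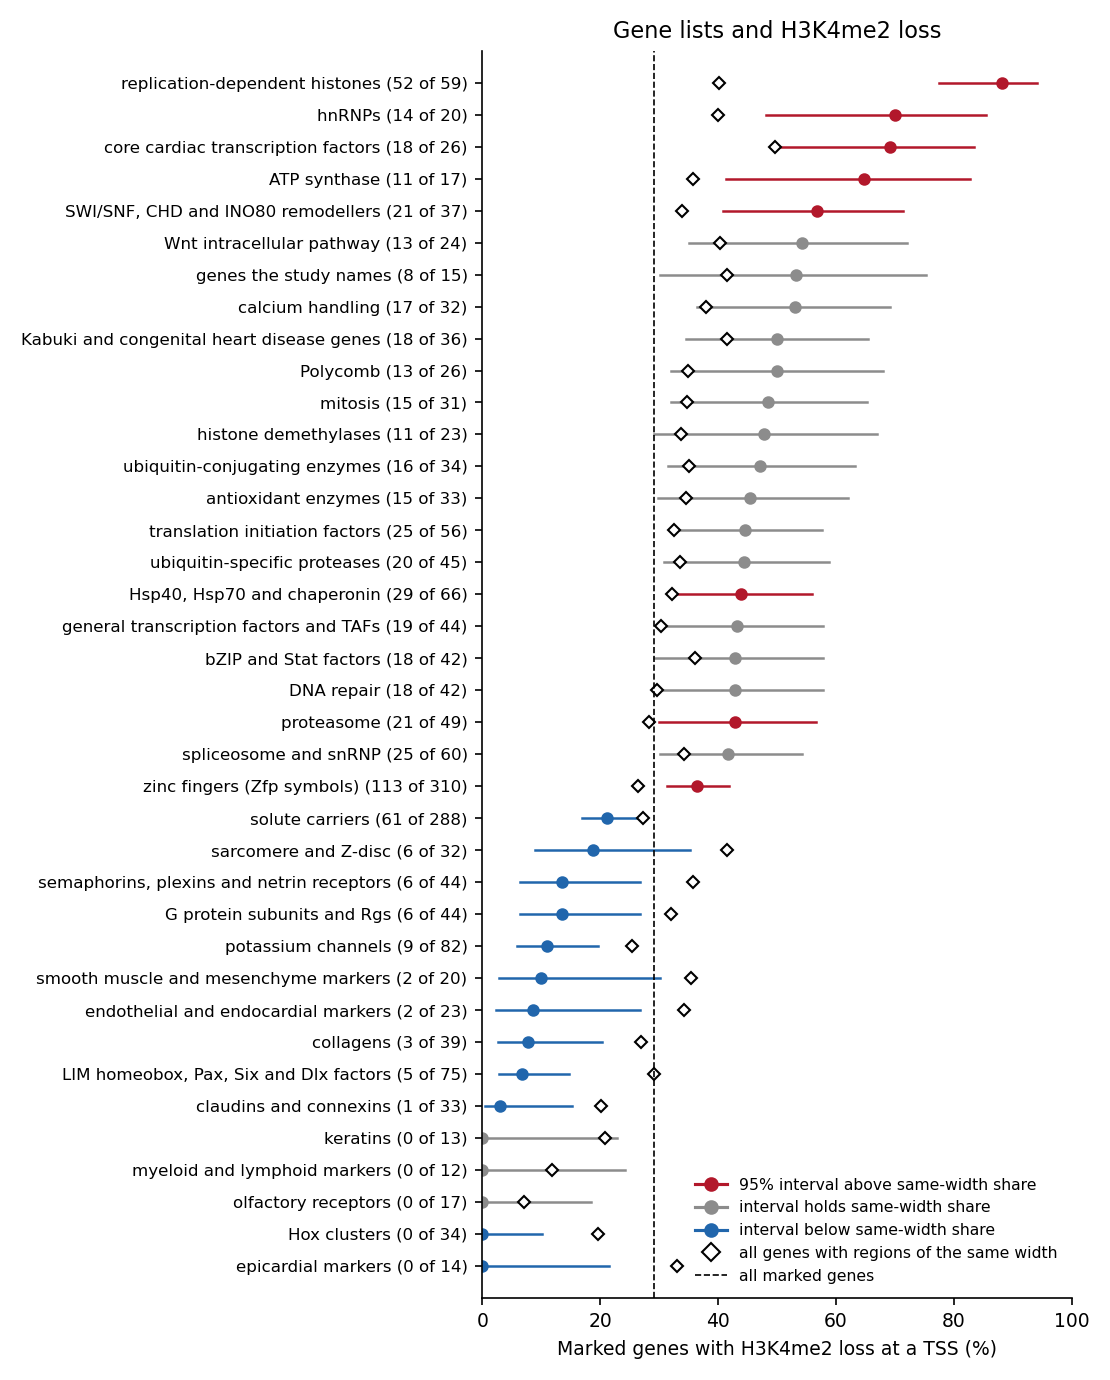
Share of the marked genes of each list with H3K4me2 loss at a TSS (%), with 95% Wilson intervals, for lists whose interval leaves out the share of all marked genes (dashed line, 29.1%) or the same-width share (diamond). Histone genes stand at the top with 52 of 59, and 5 lists at the bottom have no gene with loss, Hox clusters (34 genes), olfactory receptors (17), epicardial markers (14), keratins (13) and myeloid and lymphoid markers (12).

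Replication-dependent histone genes, which supply the histones of S phase, carried the loss most often among these lists. Of 59 marked genes, 52 had loss, or 88.1% (77.5% to 94.1%), with a same-width share of 40.1%. All 15 H2B and all 10 H3 genes had loss, as did 12 of 15 H2A, 10 of 13 H4 and 5 of 6 H1 genes. These genes share regions, and by region the count was 19 of 26. Their coding sequences are close copies of each other, and how reads that match several copies were placed is not given in the sources used here. The main cluster, on chromosome 13, spans 2048 kb, and 15 of its 19 TSS regions had loss, with 44 of 48 genes. The widest, 16920 bp at chr13:23829526-23846445, held *Hist1h1c*, *Hist1h2ab*, *Hist1h2bb*, *Hist1h3b* and *Hist1h3c*. Next was a region of 15280 bp with *Hist1h1b*, *Hist1h2an*, *Hist1h2bp* and *Hist1h3i*. The 4 TSS regions without loss were those of *Hist1h1d* (4200 bp), *Hist1h4f* (3880 bp), *Hist1h4n* (760 bp) and *Hist1h4m* (160 bp). *Hist1h2bc* and *Hist1h2ac* are divergent genes of 1 region of 5700 bp, and the 4 CpG printed above for *Hist1h2bc* were close to the histone median of 6.

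**Figure D3:**
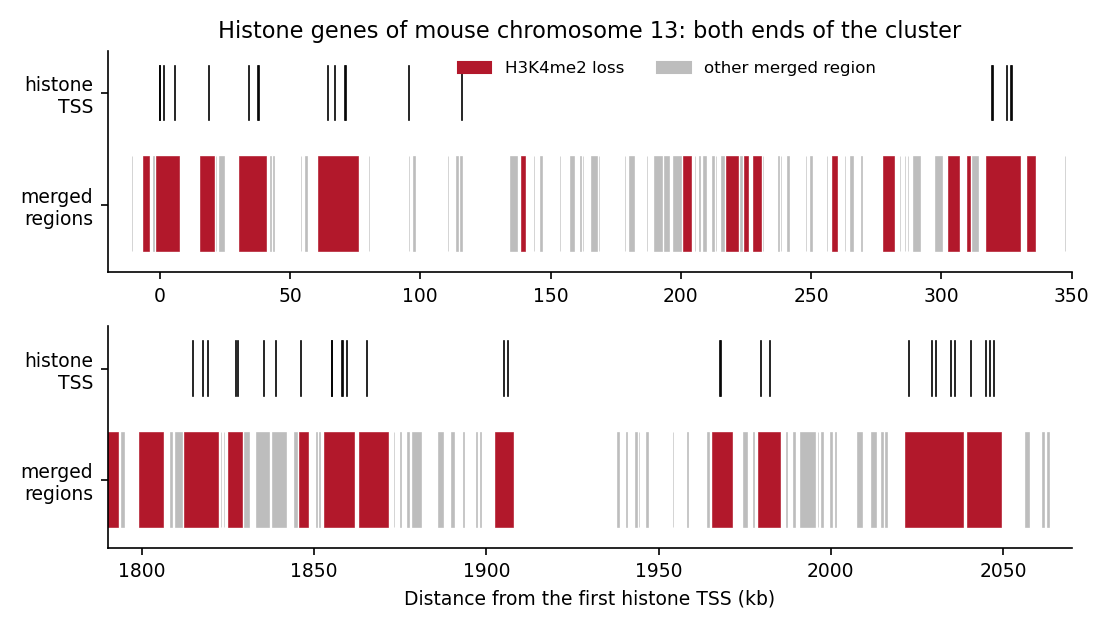
Merged regions (blocks, red where H3K4me2 loss was listed) and histone TSS (ticks) along the chromosome 13 cluster, in kb from the first histone TSS. The long stretch without histone TSS between both panels is left out. In 15 of the 19 regions that hold a histone TSS, loss was listed.

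Core cardiac transcription factors, which specify and pattern the heart, had loss at 18 of 26 genes, or 69.2% (50% to 83.5%). Their TSS regions were wide, at a median of 13350 bp, so the same-width share was 49.7%, and the lower bound lay just above it. Beside *Gata4* and *Gata6*, loss covered *Hand2* (29560 bp), a helix-loop-helix factor of the right ventricle, *Tbx2* (28400 bp), *Tbx5* (25320 bp) and *Tead1* (24120 bp). The region of *Tbx5*, at chr5:120270686-120296005, began 13986 bp upstream of the TSS, and a further region with loss, of 15260 bp, lay 26067 bp from it between genes. *Nkx2-5* had 22900 bp at chr17:26972146-26995045, of which 16535 bp were upstream. Every TSS region of the list wider than that of *Mef2c* (12100 bp) had loss. Without loss were *Mef2c*, *Tbx3* (9380 bp), *Hand1* (7580 bp) and *Prrx1* (7440 bp) among others.

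The contractile apparatus lay lower. Of 32 sarcomere and Z-disc genes, 6 had loss, or 18.8% (8.89% to 35.3%), with a same-width share of 41.6%. Among them were *Tpm1* (16300 bp), *Actc1* (12960 bp), *Myl2* (9520 bp), *Smyd1* (5940 bp) and *Nebl* (3760 bp), which encode tropomyosin, cardiac actin, a myosin light chain, a muscle methyltransferase and nebulette. Regions as wide without loss lay at *Csrp3* (21140 bp), *Myl7* (16680 bp), *Tnnt2* (16540 bp) and *Myh6* (16060 bp). Sarcomere promoters were poor in CpG, with a median of 3 in the 200 bases before the TSS. Among genes of the same width and CpG content 29.7% had loss, which lies inside the interval of the list.

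Of 32 calcium handling genes, which move and sense calcium in each beat, 17 had loss, or 53.1% (36.4% to 69.1%), with a same-width share of 37.9%. *Pln*, the inhibitor of the calcium pump, had a region of 21180 bp at chr10:53044226-53065405, and *Jph2*, which ties the cell membrane to the calcium store, one of 11860 bp. The pump gene *Atp2a2* had 11060 bp at chr5:122943106-122954165. Loss was also listed at *Calm2* (10380 bp), *Atp2b4* (9520 bp) and *Asph* (6900 bp). The channel genes *Cacna1h* (21440 bp), *Ryr2* (19000 bp) and *Cacna1c* (13440 bp) and the calcium store protein gene *Casq2* (7240 bp) had none. The interval held the same-width share and lay above the 33.5% of genes of the same width and CpG content.

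Of 82 potassium channel genes 9 had loss, or 11% (5.88% to 19.6%), with a same-width share of 25.4%. *Kcnn4* (16900 bp) and *Kcnab3* (7760 bp) were among the 9, and *Kcnh2* (21580 bp), *Kcnk3* (11900 bp) and *Kcnj5* (11840 bp) were not. Voltage-gated calcium channels had 5 of 21 (23.8%, 10.6% to 45.1%, same-width 28%), and none of 8 marked sodium channel genes had loss (up to 32.4%, same-width 22.1%), and both intervals held both backgrounds. Among solute carriers 61 of 288 had loss, or 21.2% (16.9% to 26.3%), below the same-width share of 27.3%, while the interval held the 25.2% of genes of the same width and CpG content. In the sodium pump and Fxyd list 4 of 11 did (same-width 31.9%), *Fxyd1* and *Fxyd7* among them, and *Atp1b1* (14720 bp) did not.

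**Figure D4:**
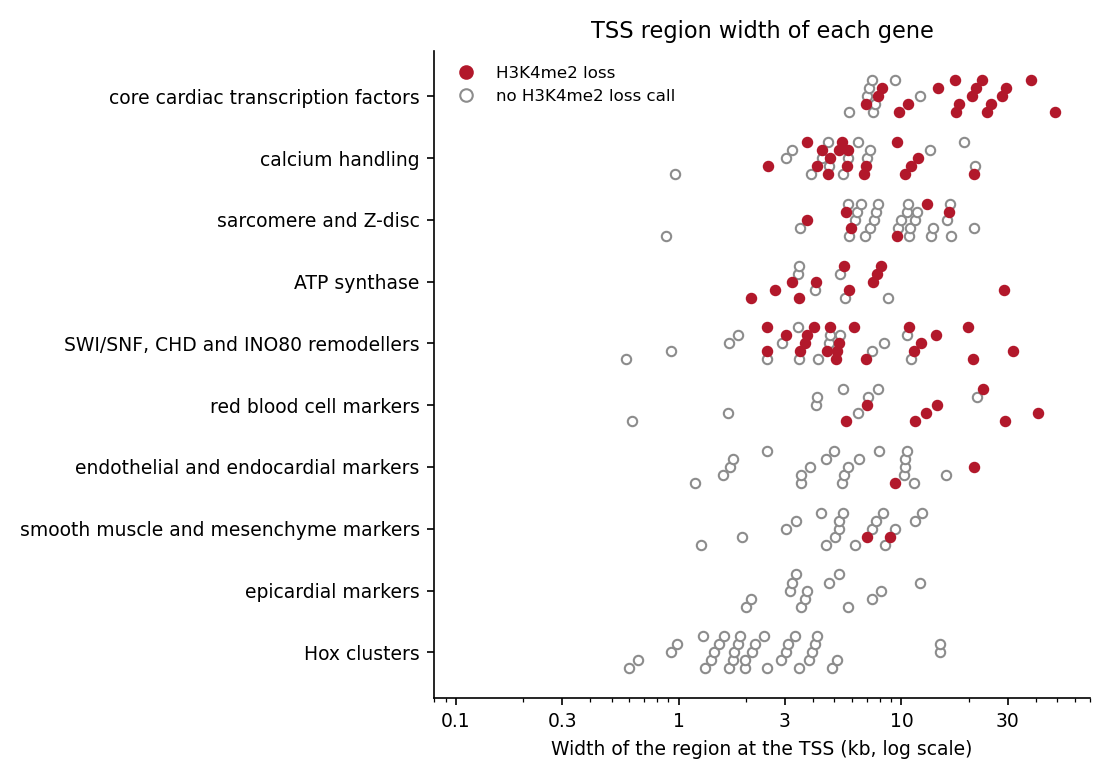
Width of the region at the TSS (kb, log scale) for each marked gene of 10 lists, 1 circle per gene, filled where H3K4me2 loss was listed. Filled circles take the wide end of the cardiac factor list, whereas sarcomere genes of like width are mostly open, and epicardial and Hox genes are all open.

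Among metabolic and mitochondrial genes, ATP synthase subunits had loss at 11 of 17, or 64.7% (41.3% to 82.7%), with a same-width share of 35.8%. *Atp5d* lay in a region of 28900 bp with 4 coding genes. *Atp5g2* (8060 bp), *Atp5h* (7740 bp), *Atp5f1* (7460 bp), *Atp5j* (5800 bp) and *Atp5b* (5520 bp) followed, and *Atp5c1* (8660 bp) and *Atp5a1* (5600 bp) had none. The respiratory complexes that feed it lay near their same-width shares, with 14 of 38 genes in complex I (36.8%, same-width 32.5%) and 13 of 35 in complexes II to IV (37.1%, 30.9%). Antioxidant enzymes, which include *Gpx1*, had loss at 15 of 33 (45.5%, same-width 34.6%), with *Prdx2* (18640 bp), *Nfe2l2* (13120 bp) and *Gclm* (12100 bp) in front. The hypoxia and glycolysis list had 13 of 36 (36.1%, same-width 38.5%). There, the hexokinase genes *Hk2* (20040 bp) and *Hk1* (19540 bp) had loss, and the glucose transporter gene *Slc2a1* (28140 bp) did not.

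Cell cycle genes had loss at 46 of 117 (39.3%, 30.9% to 48.4%), where genes of the same widths gave 34.1%. In the list of G1/S control the count was 15 of 34 (44.1%, 28.9% to 60.5%, same-width 37.4%). *Cdkn1b* (12660 bp), an inhibitor of cyclin-dependent kinases, *Cdc6* (12120 bp), *E2f2*, *E2f3* (11600 bp), *Ccnd2* (10980 bp) and *Ccnd3* (10920 bp) had loss, and *E2f4* (12120 bp), *Ccne2* (10020 bp), *Cdkn1c* (9220 bp) and *Tfdp1* (8700 bp) did not. Mitosis genes had loss at 15 of 31 (48.4%, same-width 34.7%), among them *Aurka* (7300 bp), *Wee1* (6860 bp) and *Cdc25b* (6820 bp). Of the replication list 12 of 38 had loss (31.6%, same-width 30.2%), *Pcna* (8620 bp) with it and *Mcm2* (14180 bp) without.

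Among the other chromatin lists, the interval of the remodellers alone lay above its same-width share. Remodellers of the SWI/SNF, CHD and INO80 families had loss at 21 of 37, or 56.8% (40.9% to 71.3%), with a same-width share of 33.9%. *Chd7* had 31580 bp at chr4:8612306-8643885, and *Arid2* (20900 bp), *Arid1b* (19920 bp), *Chd2* (14360 bp), *Arid1a* (12280 bp) and *Smarcd3* (11420 bp) came next, while *Pbrm1* (11020 bp) and *Smarce1* (10540 bp) had none. Polycomb genes had loss at 13 of 26 (50%, 32.1% to 67.9%, same-width 34.9%) and histone demethylases at 11 of 23 (47.8%, 29.2% to 67.0%, same-width 33.8%). SET domain methyltransferases had 16 of 38 (42.1%, same-width 34.4%) and histone deacetylases and acetyltransferases 9 of 27 (33.3%, same-width 32.7%). The KMT2 methyltransferases and their partners had 8 of 18 (44.4%, 24.6% to 66.3%, same-width 37.3%). *Setd1b* (14940 bp), *Wdr82* (6820 bp), *Mll3* (6320 bp), the closest relative of the deleted enzyme, and *Kdm6a* (4300 bp), the other Kabuki syndrome gene, were in it with loss, and *Mll1* (18220 bp) without. Genes of Kabuki syndrome and congenital heart disease, some of them in the lists above, had 18 of 36 (50%, same-width 41.5%).

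Lists of RNA and protein turnover differed among themselves. The hnRNPs, which bind nascent transcripts, had loss at 14 of 20, or 70% (48.1% to 85.5%), with a same-width share of 40%. *Hnrnpl* (14200 bp), *Hnrpdl* (11140 bp) and *Hnrnpa2b1* (10520 bp) were the widest, and *Hnrnpm* (12600 bp) had none. Proteasome genes had 21 of 49 (42.9%, 30.0% to 56.7%, same-width 28.3%), with *Psmb3* (10680 bp) and *Psmb1* (8000 bp). Hsp40, Hsp70 and chaperonin genes had 29 of 66 (43.9%, 32.6% to 55.9%, same-width 32.2%), with *Hspa8* (10880 bp) and *Dnajb4* (10460 bp). The intervals of the proteasome and chaperone lists held the shares of genes of the same width and CpG content, 30.1% and 35.2%. F-box proteins had 16 of 63 (25.4%, same-width 31.2%), TRIM proteins 12 of 50 (24%, 29.8%) and Kelch-like proteins 5 of 32 (15.6%, 29.9%), and the proteostasis class as a whole 119 of 339 (35.1%, 30.2% to 40.3%, same-width 31.3%). The spliceosome and snRNP list had 25 of 60 (41.7%, same-width 34.2%) and exosome and cleavage factors 9 of 21 (42.9%, 30.1%). DEAD-box and DEAH-box helicases, with Ddx and Dhx symbols, had 20 of 52 (38.5%, 27.9%). The intervals of these lists held the same-width shares. Genes with Zfp symbols, a large group of zinc finger proteins, had 113 of 310 (36.5%, 31.3% to 41.9%, same-width 26.4%). Cytoplasmic ribosomal protein genes, with 30 of 83 (36.1%, same-width 34.7%), were close to genes of like width.

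Several lists of developmental and adhesion genes lay low, and others did not differ from their backgrounds beyond the interval. No gene of the 34 marked Hox genes had loss (up to 10.2%, same-width 19.7%), although *Hoxb2* and *Hoxb3* shared a region of 14960 bp. The list of LIM homeobox, Pax, Dlx and related factors had 5 of 75 (6.67%, 2.88% to 14.7%, same-width 29.1%), and *Nkx2-5* was 1 of the 5. Collagens had 3 of 39 (7.69%, same-width 26.9%), *Col18a1* (18600 bp), *Col12a1* (7960 bp) and *Col5a2* (4340 bp), and not *Col4a1* or *Col4a2* (16580 bp). Semaphorins, plexins and netrin receptors had 6 of 44 (13.6%, same-width 35.7%), where *Nrp1* (23200 bp) had loss and *Unc5b* (42060 bp) and *Plxnd1* (22140 bp) did not. G protein and Rgs genes had 6 of 44 (13.6%, 32%), and claudins and connexins 1 of 33 (3.03%, 20.1%). Forkhead (7 of 37, 18.9%), Sox (4 of 18, 22.2%) and T-box factors (4 of 16, 25%), ephrins and Eph receptors (3 of 21, 14.3%), integrins (4 of 30, 13.3%), cadherins (3 of 17, 17.6%) and ADAM and matrix proteases (10 of 49, 20.4%) had intervals that held both 29.1% and their same-width shares. Of these lists only the forkhead interval, ending at 34.2%, lay just below the share at the same width and CpG content (34.3%). In the Wnt pathway, the intracellular part had 13 of 24 (54.2%, 35.1% to 72.1%), with *Tle3* (19200 bp), *Tcf7l2* (18740 bp) and *Ctnnb1* (13520 bp), and the ligands and Frizzled receptors 5 of 29 (17.2%, 7.60% to 34.5%), without *Fzd7* (13560 bp) and *Fzd4* (12820 bp). Both intervals held their same-width shares, 40.4% and 33.8%.

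Cell type markers were compared as well. Of the 10 cardiomyocyte markers, 2 had loss, beside 29.1% of all marked genes. The lists that follow are of cells in which Cre was not made. Epicardial markers had loss at 0 of 14 (up to 21.5%, same-width 33.0%), including *Wt1* (12160 bp) and *Tcf21* (8100 bp). Endothelial and endocardial markers had 2 of 23 (8.70%, 2.42% to 26.8%, same-width 34.2%), *Tal1* (21060 bp) and *Fli1* (9320 bp), and *Nfatc1* (15820 bp) and *Kdr* (11440 bp) had none. Smooth muscle and mesenchyme markers had 2 of 20 (10%, 2.79% to 30.1%, same-width 35.5%), *Twist1* (8860 bp) and *Vim* (7020 bp). Promoters of these 3 lists were poor in CpG too, and against genes of the same width and CpG content (26.7% and 26.3%) the intervals of the endothelial and smooth muscle lists held the weighted share, whereas the epicardial interval ended below its 22.3%.

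Of 17 marked genes of the red blood cell list, 8 had loss, or 47.1% (26.2% to 69.0%), with a same-width share of 40.6%. Among them were *Ank1* (40880 bp), *Epb4.1* (29120 bp), *Hba-x* (23160 bp), *Spnb1* (14420 bp), *Nfe2* (12940 bp), *Alas2* (6980 bp) and *Tfrc* (5640 bp), which include membrane skeleton, embryonic globin and haem synthesis genes. *Slc4a1* (21940 bp), *Epb4.2* (7860 bp), *Klf1* (7080 bp) and *Epor* (6380 bp) had none. *Zfpm1*, with the widest region with loss, is likewise known from red cell development. Whether the pools differed in blood content, and its part in these losses, was not tested. No myeloid or lymphoid marker had loss (0 of 12, up to 24.2%, same-width 11.9%).

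Neighbouring losses were then counted. Loss was listed for 1.82% of all merged regions and more often for those with a coding TSS, so some runs arise without any clustering. Their number was not estimated. When at most 1 other merged region was allowed between regions with loss, 697 of these fell into 330 runs of 2 or more, of which 31 had 3 or more and 5 had 4 or more. The longest, 5 regions out of 8 at chr10:127471706-127536305, took in *Naca*, a ribosome-associated chaperone, *Ptges3* with an upstream TSS of *Baz2a* (7360 bp), the ATP synthase gene *Atp5b* (5520 bp, with a further 100 bp region nearby) and a second TSS of *Baz2a* (11580 bp). Runs of 4 lay at *Mllt10* (chr2:17946806-17988885), at *Rc3h2*, *Zbtb6*, *Zbtb26* and *Rabgap1* (chr2:37275666-37309585), at *Btn1a1* (chr13:23536246-23559525) and at *Prss16* and histone genes (chr13:22110546-22143985). By windows of 1 Mb, the highest count was 22 of 133 merged regions at chr13:23000001-24000000, where 30 of 35 marked genes had loss, and the next 18 of 160 at chr13:21000001-22000000, both with histone genes. Then came 17 of 222 at chr3:95000001-96000000 around *Arnt*, *Mcl1* and *Anp32e*, and 16 of 221 and 16 of 228 in windows of chromosome 11 around *Hdac5* and *Ubtf* and around *Atp5h* and *Grb2*. In contrast, 612 of 2570 windows had no loss.

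Of the 2434 regions with loss and no TSS inside, 253 lay within 5 kb of a coding TSS, 1244 at 5 to 50 kb, 834 at 50 to 500 kb and 103 farther away. Only 603 were 2000 bp or wider, and 1167 were below 200 bp. Among the widest were those in the gene *Abtb2* (32220 bp, 7759 bp from its TSS), in *Zfp608* (28320 bp, 61809 bp away) and at *Nfia* (28180 bp). These 3, like 13 of the widest 20, had loss at the TSS of the nearest gene as well. *Foxp1*, a forkhead factor of the heart, had 2 wide inner regions with loss (22600 and 18000 bp) and none at its TSS region (12260 bp). *Gse1* had 1 of 20940 bp, 104501 bp from its nearest TSS. For *Slc8a1*, the sodium calcium exchanger, a region of 20100 bp lay 73679 bp away, and its own TSS region (960 bp) was not listed. These genes were chosen by region width after the values were seen. This was also counted for 1793 of the regions with loss more than 5 kb from a TSS, which are not all of them. There the nearest marked gene had loss at its TSS for 634, or 35.4% (33.2% to 37.6%). For 255596 other merged regions as far away the share was 31.8% (31.6% to 32%). Among those of 2000 bp or more the shares were 43.9% (39.4% to 48.4%) and 35.4% (34.7% to 36.0%). Counted per gene, *Pcdh7*, a protocadherin, had most regions (7, of which 5 below 200 bp), then *Ank3* and *Chd2* (6 each, of which 5 of 2000 bp or more) and *Auts2* and *Med13l* (5 each, as many as 4 other genes).

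Loss also reached non-coding transcripts. Of 3678 merged regions that held only TSS of other transcripts, 139 had loss, or 3.78% (3.21% to 4.45%). Merged regions of the same widths gave 5.76%. By gene, loss was listed at the TSS of 275 of 998 marked lincRNA genes, or 27.6% (24.9% to 30.4%), beside 29.1% of marked protein-coding genes. It was also listed at 89 of 265 small nucleolar RNA genes, 33.6% (28.2% to 39.5%). Most lay in regions with a coding TSS, and only 54 of the 275 and 10 of the 89 had loss in a region without one. These were the highest shares of the 10 types counted. Processed transcripts had 170 of 1183 (14.4%), pseudogenes 44 of 437 (10.1%), small nuclear RNAs 24 of 141 (17%) and microRNAs 61 of 341 (17.9%, 14.2% to 22.3%). *Malat1* (21040 bp) and *Neat1* (17040 bp), nuclear RNAs of chromosome 19, lay in regions without a coding TSS. These genes and the following were chosen after the values were seen. Of 161 microRNA genes with a Mir symbol and a 5′ end in a merged region, 28 lay in a region with loss, and 9 of them in regions with no coding TSS. *Mir322*, *Mir503* and *Mir351* shared a region of 10940 bp at chrX:50404646-50415585, and *Mirlet7i* lay in one of 6940 bp at chr10:122419246-122426185. Their mature sequences, from RefSeq's table for build GRCm38.p6, are given with the seed (bases 2 to 8) in capitals, since the seed sets which transcripts a microRNA pairs with.

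mmu-miR-322-5p: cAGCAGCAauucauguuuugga
mmu-miR-503-5p: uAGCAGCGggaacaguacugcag
mmu-miR-351-5p: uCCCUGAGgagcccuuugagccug
mmu-let-7i-5p: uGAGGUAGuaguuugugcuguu

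miR-322-5p and miR-503-5p have seeds that differ only in their last base, whereas those of miR-351-5p and let-7i-5p differ from both.

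Sequence composition was compared over the TSS windows from 250 bases before to 50 after. The CpG ratio, observed over expected from the C and G content, had a median of 0.816 (quartiles 0.658 and 0.946) in genes with loss and 0.668 (0.410 and 0.849) in the others. It was higher in all 10 width classes from 1000 bp on, for example 0.830 against 0.723 at 3000 to 4000 bp and 0.720 against 0.651 at 20000 bp or more. With the genes in 5 equal groups by this ratio, in the lowest 11.9% (10.8% to 13.1%) had loss, with a same-width share of 23.4%, and in the highest 43.3% (41.5% to 45%), with 33.5%. Histone genes, at a median CpG ratio of 0.684, were an exception to this order, and not the only one. Red blood cell markers (0.174, 47.1% with loss) and calcium handling genes (0.616, 53.1%) lay above it, and G protein and Rgs genes (0.737, 13.6%) below it.

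**Figure D5:**
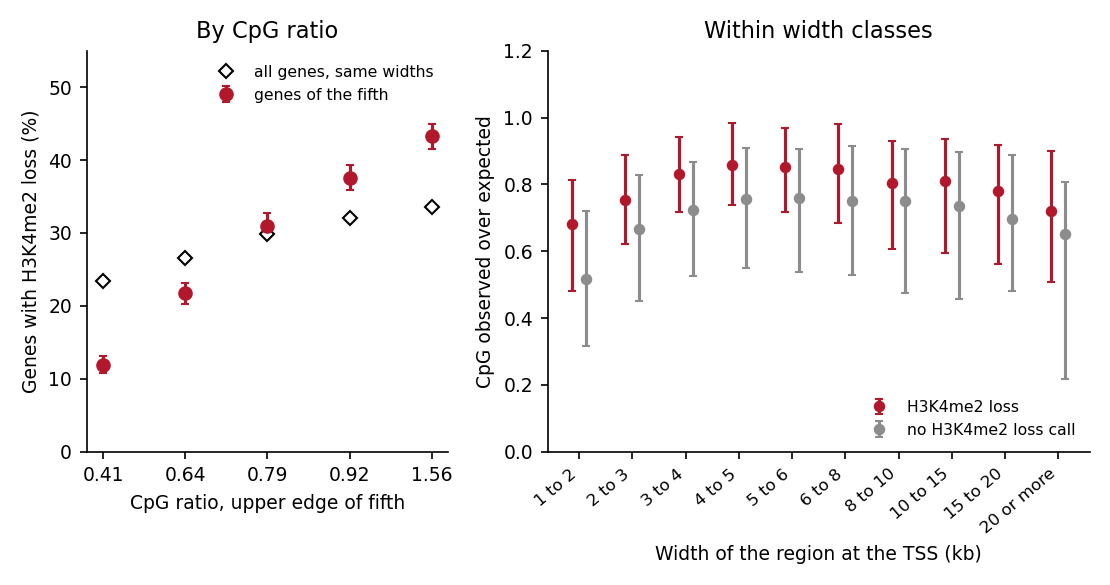
Left, share of marked genes with H3K4me2 loss (%), in 5 equal groups of genes by CpG ratio (labelled by upper edge), with 95% Wilson intervals, and the same-width share (diamonds). Right, median and quartiles of the CpG ratio for genes with and without loss by region width (kb). Loss rises from 11.9% to 43.3% across the groups, and the medians of genes with loss are the higher in every class shown.

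17 short motifs were counted on both strands of the same windows, as a description that follows CpG content in part. The NRF1 motif was found in 15.8% (14.8% to 16.9%) of genes with loss and 9.87% (9.33% to 10.4%) of the others, with 12.8% in all genes of the same widths. The ETS motif CCGGAAGT was found in 8.47% (7.70% to 9.32%) against 5.91% (5.48% to 6.36%) and same-width 6.99%, YY1 (AAGATGGCG) in 3.43% (2.94% to 4.00%) against 2.11% (1.86% to 2.40%) and 2.76%, and HIF (TACGTG) in 4.38% (3.82% to 5.02%) against 3.07% (2.76% to 3.41%) and 3.58%. Over all marked genes the shares were 11.6%, 6.65%, 2.50% and 3.45%. The E2F letters GGCGGGAA came to 4.93% (4.34% to 5.60%) and 3.58% (3.25% to 3.95%), with 4.35% at the same widths and 3.98% over all genes. Motifs of heart factors fell on both sides, with small differences. MEF2 was found in 2.08% (1.70% to 2.54%) of genes with loss and 1.92% (1.68% to 2.20%) of the others, with 1.92% at the same widths and 1.97% over all genes, and the CArG box of SRF in 1.44% (1.13% to 1.83%) against 1.23% (1.04% to 1.46%), with 1.38% and 1.29%. The motif of GATA factors, spelled AGATAA, was found in 6.59% (5.91% to 7.35%) against 7.55% (7.07% to 8.06%), with 6.58% at the same widths and 7.27% over all genes. The T-box letters GGTGTGA came to 3.12% against 3.74% (same-width 3.28%, all genes 3.56%), and those of NKX2, CAAGTGG, to 3.01% against 3.57% (3.21% and 3.41%). TEAD factors, with ACATTCCA, had 0.575% (0.393% to 0.842%) against 0.880% (0.722% to 1.07%), with 0.701% and 0.791%.

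Finally, a loss of H3K4me1 alone was looked for in each gene and within 5 kb of it. The chromatin of each pool was divided among the antibodies, so both marks came from the same hearts. It was listed for 8.71% of marked genes, for 361 of the 4520 with H3K4me2 loss (7.99%, 7.23% to 8.81%) and for 992 of the 11021 others (9.0%, 8.48% to 9.55%). Genes with H3K4me2 loss were longer, at a median of 27978 against 20740 bp. In each of 5 equal groups by gene length the share was the lower in genes with H3K4me2 loss, from 1.13% (0.575% to 2.22%) against 2.70% (2.13% to 3.43%) in the shortest to 20.9% (18.5% to 23.5%) against 22.5% (20.8% to 24.3%) in the longest, and the intervals overlapped in the shortest, the middle and the longest group. Regions of both lists had been left out, so the TSS region that gave a gene its H3K4me2 loss could not carry H3K4me1 loss, while a TSS region of another gene could, and the lower share is set in part by this rule. Of the 2558 regions with H3K4me1 loss alone, 140 held a coding TSS. Without these 140, and not split by gene length, the shares were 7.59% (6.85% to 8.40%) and 8.0% (7.51% to 8.52%), with overlapping intervals. Split by length without these 140, the share was still the lower in genes with H3K4me2 loss in each of the 5 groups. The intervals lay apart in the shortest group (0.221% to 1.45% against 1.47% to 2.59%) and overlapped in the others. Among genes alone in their TSS region, the 10 with the widest regions and both losses, each in a region of its own, were *Gata4*, *Rreb1*, *Rcsd1* (37040 bp), *Chd7*, *Sept9* (30980 bp), *Igf1r* (29700 bp), *Kirrel* (27400 bp), *Bcar1* (25740 bp), *Tbx5* and *Tead1*, chosen after their values were seen.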

How the data were processed

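H3K4 methylation was profiled by ChIP-Seq in pooled E11.5 hearts. Per the submitters' processing notes the tools were CASAVA 1.8.2, Bowtie, Bowtie2, SAMtools and FastQC, with build mm9. The study describes decreased regions by a cut-off on the false discovery rate, but for H3K4me2 counts a different number of them than the deposited list holds, so whether that cut-off applies here is not certain. The peak caller and the test are not given in the sources used here. The authors deposited a merged list of regions and 2 lists of decreased regions, each with chromosome, start and end, and no count, score or other value per library. Region starts lay on a grid of 20 bp.

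Lists were joined by overlap of at least 1 bp, and coordinates were written 1-based. Genes and TSS came from GENCODE vM1 on NCBIM37, and gene records with 1 symbol on 1 chromosome were counted once. Python 3.11.15 with pandas 2.3.3 was used, and the interval functions were tested on simulated data. Shares have 95% Wilson intervals. The same-width share is the mean share with loss of all marked genes in each gene's width class, of 13 classes.

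The 95 gene lists and the regions were chosen with earlier results of these data known. Named genes were those the study names, the 10 widest and 5 narrowest promoter regions, up to 6 genes with and 4 without loss per list by width, the 5 genes with most regions, and those of the 5 longest runs and 5 fullest windows. Others are marked as chosen after their values were seen. Some named genes and sequences are not reported here.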

Additional observations from a re-analysis of the deposited data

How the results depend on the processing

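No paired analysis was possible because the lists carry no value per replicate, and for the same reason no replicate could be left out. The share of merged regions with loss was 1.87% with the regions of both lists kept in and 3.55% among regions of at least 500 bp. The share of marked genes with loss was 26.3% when a TSS within 1 kb of a region counted and 30.6% for regions of at least 1000 bp. A TSS of any transcript lay in 62.7% of the regions with loss, and a coding TSS in 75.8% of those of at least 500 bp. Of the 23 lists above all marked genes, 8 lay above their same-width share and 7 above the share at the same width and CpG content, an alternative chosen after seeing the data. With no other region allowed between them, runs fell from 330 to 187. Weighting to gene length, also chosen after seeing the data, moved the difference in H3K4me1 loss between genes with and without H3K4me2 loss from -1.01 to -2.14 percentage points. The cause of these shifts was not tested. In 364 alternative values for the 91 lists, 9 values of 7 lists changed sign against the background (among them hypoxia and glycolysis, from 7.03 to -2.39 percentage points, Notch, from 4.25 to -3.15, and Hippo, from 4.25 to -6.70, all weighted to width), and 0 of these lists had an interval outside it. Counting H3K4me1 loss only in regions without a coding TSS, chosen after seeing the data, gave -0.414 percentage points without weighting to gene length. A region needs enough reads to be listed, so a region outside the list may still have changed, and how far width reflects depth cannot be read from coordinates.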

Other observations

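Genes grouped by the letters that open their symbols gave 185 groups of at least 10 marked genes, chosen here after their values were seen. Beside the histone genes, H3K4me2 loss was listed for 8 of 10 Atf genes (80%, 95% Wilson interval 49.0% to 94.3%, same-width share 36.1%), which encode stress-responsive transcription factors, and for 10 of 13 Dcaf genes (76.9%, 49.7% to 91.8%, same-width 26.6%), which encode substrate receptors of a ubiquitin ligase. Autophagy genes with Atg symbols had 10 of 16 (62.5%, 38.6% to 81.5%, same-width 28.8%). No gene had loss in 8 groups, among them 16 Unc genes (up to 19.4%, same-width 30%) and 10 aquaporin genes (up to 27.8%, same-width 27.7%). Of 46 Il genes, of interleukins and their receptors, 2 had loss (4.35%, 1.2% to 14.5%, same-width 19.4%).

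By chromosome, the share of marked genes with loss was highest on chromosome 13, at 40.6% (36.7% to 44.6%, same-width share 29.3%), and still 36.1% (32.2% to 40.3%, same-width 28.3%) without its histone genes. It was lowest, among chromosomes with at least 10 marked genes, on X, at 16.9% (13.8% to 20.5%), where TSS regions were narrower (median 2340 bp) and the same-width share was 20.8%. Chromosome 7 had 21.4% (19.2% to 23.8%) with a same-width share of 28.5%.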
